A study of Mus musculus with 30 samples.

Results

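The genes described here are 8 Toll-like receptors (Tlr1, Tlr2, Tlr3, Tlr4, Tlr7, Tlr8, Tlr9 and Tlr13) and 2 adaptors (Myd88 and Ticam1), picked out of the J774 count table by matching its Ensembl identifiers to these symbols. They were 10 of the 54146 genes in the table, and all 10 had between 232 and 12176 counts in every library and passed the filter on low counts in every comparison. The table covers 5 lines of J774A.1, a mouse macrophage-like tumour cell line. WT1, WT2 and WT3 are clones expanded from single wild-type cells that were not electroporated, and KO1 and KO2 are clones with a homozygous CRISPR/Cas9 deletion of B2_Mm2.Dicer1, a B2 SINE element in an intron of Dicer1. Each clone was sampled untreated (UT) and after 4 h with 100 ng/mL interferon gamma (IFNG), in 3 libraries each, 30 libraries in all. Each line is 1 clone, so a genotype is represented by 3 or 2 clones, and effects of electroporation and of the deletion cannot be told apart. All 5 lines share the cloning from single cells. The labels do not say whether libraries of a clone came from separate cultures, so the p-values below measure only the spread between these libraries.

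Toll-like receptors let macrophages sense microbes. Those at the cell surface bind components of the microbial envelope such as lipopeptides and lipopolysaccharide, and those in endosomes bind nucleic acids. The cytoplasmic TIR domains of the receptors recruit adaptors: Myd88 serves nearly all of them, whereas Ticam1, also called TRIF, serves Tlr3 and the internalised form of Tlr4, and both routes lead to NF-kB and to interferon regulatory factors. Exposure to IFNG, often called priming, is known to alter how macrophages answer a later microbial stimulus, and the comparison of UT with IFNG libraries shows how the levels of the receptor and adaptor mRNAs themselves moved in each clone.

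Libraries held 15566122 to 37992642 counts. In the column headers, the libraries of WT1, KO1 and KO2 carry the numbers 7 to 24 and those of WT2 and WT3 the numbers 25 to 36, and what the numbers stand for is not given in the sources used here. The higher numbers hold WT clones only, so wherever WT2 and WT3 stood apart from the other 3 clones, the clones and the header numbers cannot be told apart, and comparisons of KO with WT in the 10 genes are given also for WT1, KO1 and KO2 alone. All 8 macrophage markers examined had a count in every library, with a summed level of 4238 to 6878 CPM (counts scaled to library size and TMM factor) in UT and 4264 to 6620 CPM in IFNG libraries, whereas fibroblast, T cell and epithelial markers summed to at most 2.92 CPM, and Dcn, Cd8a and Krt5 were at 0 throughout. The markers were uneven between clones: group means of Adgre1, which encodes the macrophage surface protein F4/80, ran from 9.87 to 283 CPM, and their part in the results was not tested. Dicer1, the gene that holds the deleted element, averaged 119 ± 11.3 CPM (SD, n = 9) in UT libraries of WT and 88.0 ± 18.2 CPM (SD, n = 6) in those of KO (edgeR log2FC = -0.43, adjusted p = 0.00689), a check of its expression and not of the intronic deletion. Irf1 and Gbp2b, canonical IFNG-stimulated genes, rose in all 5 clones, by log2FC of 4.97 to 5.33 and of 8.39 to 9.86, respectively. By the genotype by treatment term described below (edgeR), Gbp2b rose more in KO (log2 difference 0.85, adjusted p = 0.000172). With WT1, KO1 and KO2 alone it was 0.79 (adjusted p = 0.00363). It did not pass with counts summed per clone and treatment (adjusted p = 0.239) or without KO1 (adjusted p = 0.0761). For Dicer1 the same term was -0.36 (adjusted p = 5.66e-05), and -0.35 (adjusted p = 0.0268) with WT1, KO1 and KO2 alone. Summed counts did not call it (adjusted p = 0.133). UT libraries of WT (96.7 to 130 CPM) and KO (70.5 to 108 CPM) overlapped in Dicer1.

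Per kilobase of exon, the only scale on which different genes can be set side by side here, the endosomal receptor Tlr13 had the highest UT level of the set, at 64.2 to 103 CPM per kb across clones. Tlr2 (41.5 to 62.9 CPM per kb) and Tlr7 (49.5 to 51.8 CPM per kb) came next. Myd88 (22.8 to 28.8 CPM per kb), Tlr4 (19.5 to 26.8 CPM per kb) and Tlr8 (12.5 to 26.9 CPM per kb) lay in the middle of the range. The lowest levels were those of Tlr9 (5.88 to 8.85 CPM per kb), Ticam1 (4.98 to 9.40 CPM per kb), Tlr1 (5.10 to 6.88 CPM per kb) and Tlr3 (3.30 to 5.39 CPM per kb). Among the receptors of this set, the double-stranded RNA receptor Tlr3 was thus the least abundant in UT cells, and after IFNG it stood at 13.6 to 25 CPM per kb, next to Tlr4 (17.7 to 22.8 CPM per kb).

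**Figure D1:**
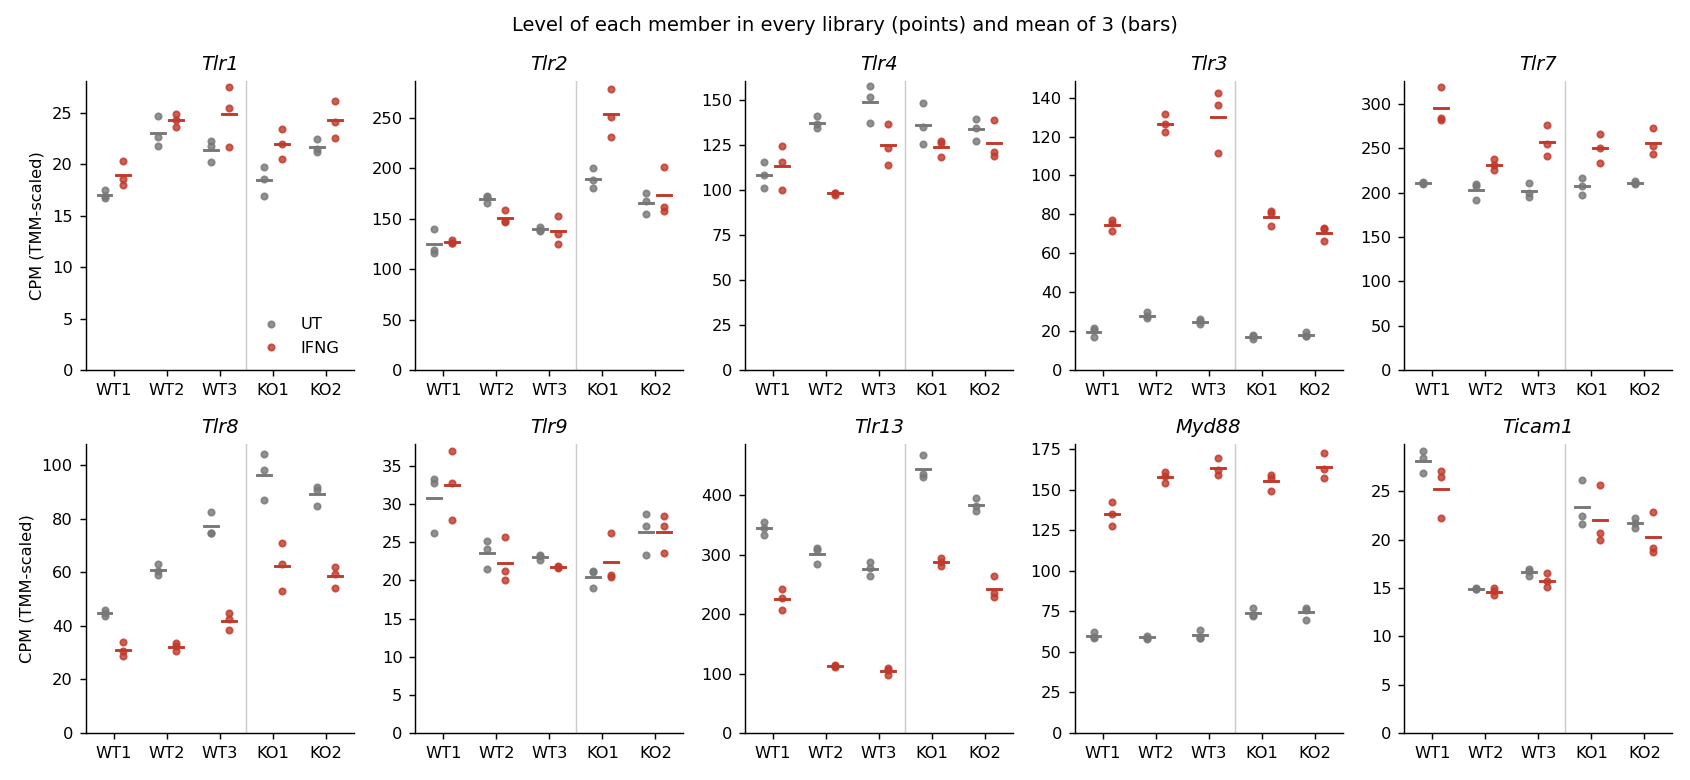
Level of each gene in CPM, with TMM scaling (linear axes from 0), in the 5 clones; points are libraries (grey UT, red IFNG) and horizontal bars are means of 3. Tlr3 and Myd88 points of IFNG libraries lie above those of UT libraries in every clone, Tlr8 and Tlr13 points lie below, and the Tlr13 points of WT2 and WT3 after IFNG lie between 96.9 and 114 CPM.

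A group of 5 genes moved the same way in every clone: IFNG raised Tlr3, Myd88 and Tlr7 and lowered Tlr8 and Tlr13, and for each of the 5 the UT and IFNG libraries did not overlap in any clone. The share of all genes that did so in every clone was not computed, so the count of 5 is a description only. Tlr1, Tlr2 and Tlr4 passed the test in 2 clones each, and Tlr9 and Ticam1 in none. In numbers (edgeR quasi-likelihood test within each clone, Benjamini-Hochberg adjusted p below 0.05), 3 genes were higher and 2 lower in WT1, where 11.8% and 9.47% of all tested genes were called higher and lower. In WT2 the counts were 3 and 4, against 17.4% and 17% of all genes, and in WT3 they were 4 and 3, against 18.6% and 17.5%. In KO1 the counts were 5 and 2, against 16.2% and 13.2%, and in KO2 they were 3 and 2, against 13.9% and 13.2%. The median log2FC of the 10 genes was 0.06 in WT1, -0.03 in WT2, -0.04 in WT3, 0.23 in KO1 and 0.03 in KO2, beside medians of -0.01 to 0.00 over all genes.

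**Figure D2:**
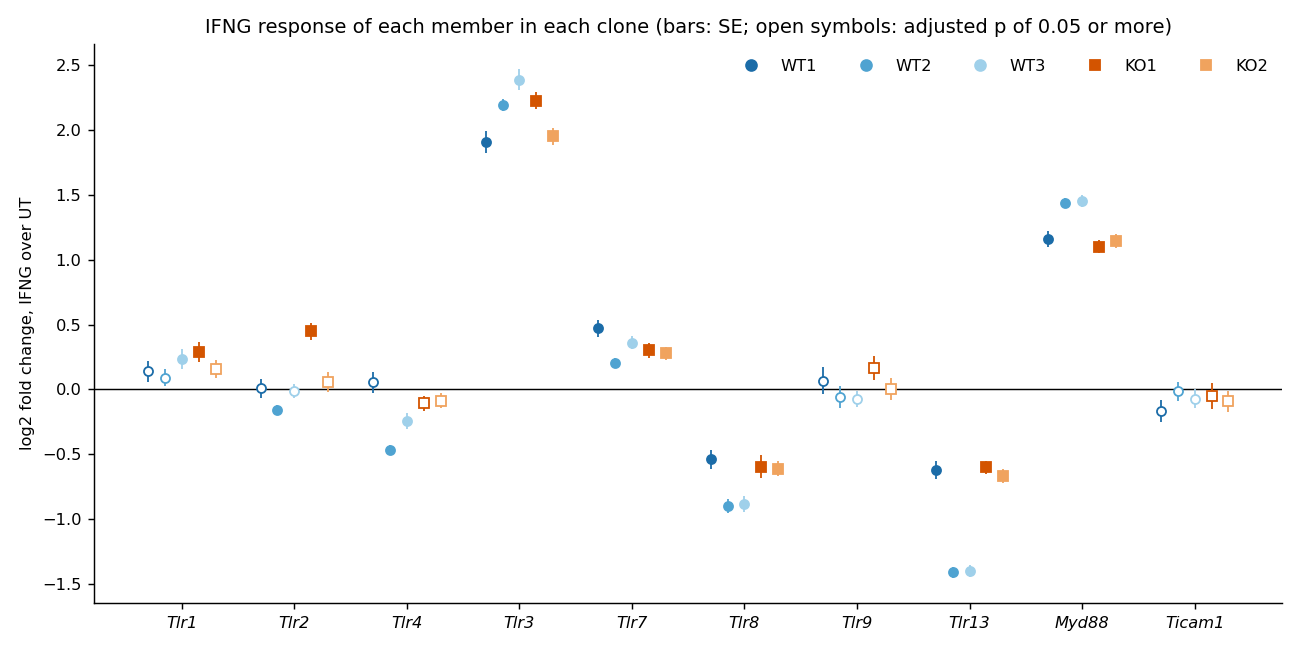
log2 fold change of IFNG over UT for each gene in each clone (circles WT, squares KO); bars are standard errors and open symbols did not pass an adjusted p of 0.05. Tlr3 lies between 1.91 and 2.39, Myd88 between 1.1 and 1.46, and Tlr13 falls into values near -1.4 (WT2, WT3) and near -0.6 (WT1, KO1, KO2).

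Among the surface receptors, log2FC lay between -0.47 and 0.45, and calls of both directions occurred in Tlr2. Tlr2 (ENSMUSG00000027995.10, chr3:83836272-83841767, minus strand) recognises lipopeptides together with Tlr1 or Tlr6. In KO1 its UT libraries had 181, 188 and 200.1 CPM and its IFNG libraries 231, 251 and 278 CPM, so that the groups did not overlap and Tlr2 rose (log2FC = 0.45, SE 0.0654, adjusted p = 0.000110). In WT2 it had 166, 171 and 173 CPM in UT and 147, 148 and 158 CPM in IFNG libraries, a fall beyond the spread (log2FC = -0.15, SE 0.0387, adjusted p = 0.00331), which a single fit over all 30 libraries did not call (log2FC = -0.17, adjusted p = 0.120). In WT1, WT3 and KO2 the UT and IFNG libraries of Tlr2 overlapped, with log2FC of 0.01, -0.01 and 0.06 and adjusted p of 0.952, 0.895 and 0.659.

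Tlr4 (ENSMUSG00000039005.13, chr4:66827584-66930284, plus strand), the receptor for lipopolysaccharide, fell in 2 clones. WT2 had 134, 137 and 141 CPM in UT and 97.3, 98.6 and 98.7 CPM in IFNG libraries (log2FC = -0.47, SE 0.0374, adjusted p = 1.97e-09), and WT3 had 137, 152 and 158 and 114, 124 and 137 CPM (log2FC = -0.24, SE 0.0604, adjusted p = 0.00356). In neither clone did the treatments overlap. The log2FC was 0.05 in WT1, -0.11 in KO1 and -0.09 in KO2, with adjusted p from 0.208 to 0.718 and overlapping libraries. Tlr1 (ENSMUSG00000044827.10, chr5:64924679-64933563, minus strand), the partner of Tlr2, gave log2FC from 0.09 to 0.29 and passed the test in WT3 (log2FC = 0.24, SE 0.0788, adjusted p = 0.0254) and KO1 (log2FC = 0.29, SE 0.0773, adjusted p = 0.0119). A difference in the Tlr1 response between the 5 clones was not called (adjusted p = 0.881). The call in WT3 was lost in 3 of 6 fits that each left out a library, with adjusted p of up to 0.153, and that in KO1 in 2 of 6, with adjusted p of up to 0.0657. Of the 75-base stretches of Tlr1 transcripts, 10.6% also occur in other genes, Tlr6 among them, so its counts are less certain than those of the other 9 genes, which shared none.

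Of the endosomal receptors, Tlr3 (ENSMUSG00000031639.12, chr8:45395665-45411080, minus strand) rose in every clone. UT libraries had 17, 20.5 and 21.8 CPM in WT1, 26.7, 27.8 and 29.7 CPM in WT2 and 23.5, 25.3 and 26.2 CPM in WT3. In the KO clones they had 16.1, 17.4 and 18.1 CPM in KO1 and 17.6, 17.7 and 19.4 CPM in KO2. IFNG libraries had 71.7, 75.8 and 76.9 CPM in WT1, 122, 126 and 132 CPM in WT2 and 112, 136 and 142 CPM in WT3. Every IFNG library was above every UT library, and the WT2 and WT3 libraries were the highest in both treatments. In KO1 and KO2 the IFNG libraries had 74.0, 80.8 and 81.7 CPM and 66.1, 72.5 and 73.2 CPM, close to WT1. The log2FC was 1.91 in WT1, 2.19 in WT2, 2.39 in WT3, 2.22 in KO1 and 1.95 in KO2, with SEs of 0.0484 to 0.0852 and adjusted p of 8.55e-19 to 4.33e-10.

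Tlr7 (ENSMUSG00000044583.13, chrX:167304929-167330558, minus strand), a receptor for single-stranded RNA, rose by a smaller amount. Its UT libraries all lay between 192 and 216 CPM, and the means of the IFNG libraries were 295 ± 21 in WT1, 232 ± 5.92 in WT2, 257 ± 17.7 in WT3, 250.1 ± 16.3 in KO1 and 256 ± 14.7 in KO2 (SD, n = 3). In each clone the lowest IFNG library was above the highest UT library. The log2FC was 0.47 in WT1, 0.20 in WT2, 0.36 in WT3, 0.30 in KO1 and 0.28 in KO2, with SEs of 0.0386 to 0.0640 and adjusted p of 1.01e-05 to 0.000825.

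Tlr8 (ENSMUSG00000040522.5, chrX:167242696-167264329, minus strand) lies beside Tlr7 on the X chromosome and fell where Tlr7 rose. Its UT libraries had 43.6, 44.6 and 46.0 CPM in WT1, 59.0, 60.3 and 63.1 CPM in WT2 and 74.7, 74.8 and 82.7 CPM in WT3. KO1 had 86.9, 98.2 and 104 CPM and KO2 84.9, 90.6 and 91.7 CPM. The UT libraries of the KO clones were above all those of the WT clones. After IFNG the libraries had 28.8, 30.6 and 33.9 CPM in WT1, 30.5, 32.6 and 33.7 CPM in WT2, 38.5, 42.7 and 44.7 CPM in WT3, 53.1, 63.1 and 71.0 CPM in KO1 and 54.1, 59.5 and 61.9 CPM in KO2. Each clone fell without overlap, and the KO clones again stood above the WT clones. The log2FC was -0.54 in WT1, -0.90 in WT2, -0.88 in WT3, -0.60 in KO1 and -0.61 in KO2 (SEs 0.0529 to 0.0896, adjusted p 1.32e-11 to 0.000147).

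Tlr13 (ENSMUSG00000033777.4, chrX:106143204-106160493, plus strand), which senses bacterial ribosomal RNA in mice, showed the largest falls of the set, in WT2 and WT3. UT libraries had 333, 346 and 355 CPM in WT1, 285, 308 and 311 CPM in WT2, 264, 277 and 287 CPM in WT3, 431, 436 and 469 CPM in KO1 and 373, 382 and 396 CPM in KO2. IFNG libraries had 207, 228 and 243 CPM in WT1, 110.2, 113 and 114 CPM in WT2, 96.9, 105 and 110.2 CPM in WT3, 280.4, 288 and 295 CPM in KO1 and 229, 235 and 264 CPM in KO2. After IFNG the libraries of WT2 and WT3 were all below those of WT1, KO1 and KO2. The log2FC was -0.62 in WT1, -1.41 in WT2, -1.40 in WT3, -0.60 in KO1 and -0.66 in KO2 (SEs 0.0394 to 0.0679, adjusted p 4.75e-17 to 8.43e-06). Tlr9 (ENSMUSG00000045322.10, chr9:106222598-106226883, plus strand), the receptor for unmethylated CpG DNA, had UT means of 30.8 ± 3.93 in WT1, 23.6 ± 1.90 in WT2, 23.1 ± 0.324 in WT3, 20.5 ± 1.23 in KO1 and 26.4 ± 2.71 in KO2 CPM (SD, n = 3). Its log2FC lay between -0.07 and 0.17 with SEs of 0.0609 to 0.107, and no clone passed the test (adjusted p 0.217 to 0.976).

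The adaptors behaved differently from each other. Myd88 (ENSMUSG00000032508.8, chr9:119335934-119341411, minus strand) had UT libraries of 58.3, 59.1 and 62.0 CPM in WT1, 58.1, 58.8 and 59.5 CPM in WT2 and 58.2, 58.5 and 63.5 CPM in WT3. The KO clones had 71.8, 72.9 and 76.9 CPM in KO1 and 69.7, 76.0 and 77.1 CPM in KO2. All 9 WT libraries were below all 6 KO libraries. After IFNG the libraries had 127, 135 and 142 CPM in WT1, 154, 158 and 161 CPM in WT2, 159, 162 and 169 CPM in WT3, 149, 157 and 159 CPM in KO1 and 157, 163 and 173 CPM in KO2, so that KO libraries no longer stood above those of WT2 and WT3. The log2FC was 1.16 in WT1, 1.44 in WT2, 1.46 in WT3, 1.1 in KO1 and 1.14 in KO2 (SEs 0.0391 to 0.0629, adjusted p 3.04e-17 to 3.98e-09). Ticam1 (ENSMUSG00000047123.8, chr17:56269319-56276786, minus strand) had UT means of 28.1 ± 1.19 in WT1, 14.9 ± 0.0557 in WT2, 16.6 ± 0.400 in WT3, 23.4 ± 2.43 in KO1 and 21.7 ± 0.503 in KO2 CPM and IFNG means of 25.3 ± 2.62 in WT1, 14.6 ± 0.346 in WT2, 15.8 ± 0.761 in WT3, 22.1 ± 3.13 in KO1 and 20.2 ± 2.27 in KO2 CPM (SD, n = 3). Its UT and IFNG libraries overlapped in every clone, its log2FC lay between -0.16 and -0.01 with SEs of 0.0728 to 0.0992, and it passed the test in no clone (adjusted p 0.210 to 0.920).

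The promoters of the genes with the largest movements are shown because GAS and ISRE are motifs known from promoters of interferon-responsive genes. RefSeq promoters on GRCm38.p6 matched 8 of the 10 genes (all but Tlr4 and Tlr7), with 2 for Tlr1, and the 250 bases before the start were searched on both strands for GAS (TTCNNNGAA) and ISRE (GAAA followed, after 2 bases of any kind, by GAAA). Over all 32851 promoters, 7.02% held the GAS letters and 2.98% the ISRE letters. The Myd88 promoter held 1 of each, with first bases 46 and 40 bases before the start, overlapping each other. Tlr8 held 1 GAS match, 106 bases before the start, and the downstream Tlr1 promoter 1 GAS match, 228 bases before it. The other promoters, of Tlr2, Tlr3, Tlr9, Tlr13, Ticam1 and the upstream Tlr1 start, did not hold these letters in this window. The Myd88, Tlr3 and downstream Tlr1 windows lie inside the counted genes, so these starts are not the genes' outermost annotated ends. The sequences printed here run 5′ to 3′ on the gene's strand, with matches in capitals, for both directions of response: Myd88 and Tlr3 rose and Tlr8 and Tlr13 fell. A match is a description of letters and not of binding.
Myd88 promoter, chr9:119340019-119340268, minus strand: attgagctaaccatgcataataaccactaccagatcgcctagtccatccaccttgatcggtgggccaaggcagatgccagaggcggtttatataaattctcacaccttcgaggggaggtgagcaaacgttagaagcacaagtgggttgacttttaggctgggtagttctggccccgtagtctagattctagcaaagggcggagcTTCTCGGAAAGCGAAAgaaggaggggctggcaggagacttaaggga
Tlr3 promoter, chr8:45410381-45410630, minus strand: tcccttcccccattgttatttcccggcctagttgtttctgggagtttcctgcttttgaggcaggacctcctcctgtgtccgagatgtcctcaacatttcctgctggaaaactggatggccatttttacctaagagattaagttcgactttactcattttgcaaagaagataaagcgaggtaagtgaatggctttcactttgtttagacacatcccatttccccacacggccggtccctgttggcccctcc
Tlr8 promoter, chrX:167264330-167264579, minus strand: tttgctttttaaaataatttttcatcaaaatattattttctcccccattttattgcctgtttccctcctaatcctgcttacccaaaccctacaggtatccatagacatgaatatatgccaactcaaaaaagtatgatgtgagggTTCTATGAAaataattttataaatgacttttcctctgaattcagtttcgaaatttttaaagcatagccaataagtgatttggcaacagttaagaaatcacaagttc
Tlr13 promoter, chrX:106143025-106143274, plus strand: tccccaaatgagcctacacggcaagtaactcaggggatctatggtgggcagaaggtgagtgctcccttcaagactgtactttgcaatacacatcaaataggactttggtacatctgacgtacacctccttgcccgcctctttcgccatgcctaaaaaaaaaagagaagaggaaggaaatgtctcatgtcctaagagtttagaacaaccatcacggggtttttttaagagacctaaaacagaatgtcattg

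Untreated levels of 9 of the 10 genes differed between the 5 clones (edgeR test over clones, adjusted p below 0.05), where 73.2% of all genes did, and after IFNG all 10 did, against 69.3% of all genes. Tlr7 was the exception in UT cells (adjusted p = 0.329), with clone means of 202 to 211 CPM. From low to high, Myd88 ran WT2, WT1, WT3, KO1, KO2, and the single step that passed the test was that from WT3 to KO1 (log2 difference 0.29, SE 0.0474, adjusted p = 1.93e-05). Tlr8 ran WT1, WT2, WT3, KO2, KO1, and each step passed except that between the KO clones. Tlr13 ran WT3, WT2, WT1, KO2, KO1, and each step passed except that between WT3 and WT2. In these 3 genes the KO clones occupied the top of the order. The share of all genes that order by genotype was not computed, so such orders are a description only.

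The other genes did not order by genotype, apart from Tlr3, which ran KO1, KO2, WT1, WT3, WT2 and where only the step from WT1 to WT3 passed (log2 difference 0.32, adjusted p = 0.00201), while WT1 was above KO1 (log2 difference of KO1 from WT1 -0.22, adjusted p = 0.0314) but was not called against KO2 (adjusted p = 0.227). Tlr2 ran WT1, WT3, KO2, WT2, KO1, and the step from KO2 to WT2 alone did not pass. Ticam1 ran WT2, WT3, KO2, KO1, WT1, with steps that passed between WT3 and KO2 and between KO1 and WT1. WT1 was lowest for Tlr1, Tlr2, Tlr4 and Tlr8 and highest for Tlr9 and Ticam1. In Tlr4 only the step above WT1 passed, in Tlr9 only that below it, and in Tlr1 that between KO1 and WT3.

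Among the 10 pairs of untreated clones, which share libraries with each other, WT1 differed from each of the other 4 in 8 genes, against 51.7% of all genes for WT2, 51.3% for WT3, 49.4% for KO1 and 41.7% for KO2. WT2 and WT3 differed in 2 genes, Tlr2 and Tlr8 (9.3% of all genes), and KO1 and KO2 in 4, Tlr1, Tlr2, Tlr9 and Tlr13 (25%). KO1 differed from WT2 and from WT3 in 7 genes each (47.4% and 51% of all genes), and KO2 in 5 and 7 (39.1% and 39.6%). In the members as in all genes, WT1 stood about as far from the other WT clones as from the KO clones.

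Clones can differ in the copies of a chromosome they carry, so each gene's level was set beside that of its neighbours within 10 Mb. For Tlr7 and Tlr8, which share a window of 40 expressed genes on the X chromosome, the median neighbour differed from the mean of the other clones by 0.39 (log2) in WT1, -0.69 in WT2, -0.68 in WT3, 0.49 in KO1 and 0.44 in KO2. Tlr7 itself stayed within -0.04 and 0.04 of the other clones. Tlr8 differed by -0.82 in WT1, -0.28 in WT2, 0.15 in WT3, 0.54 in KO1 and 0.41 in KO2, so that it went with its neighbours in WT2 and the KO clones and against them in WT1 and WT3. Around Ticam1, on chromosome 17, the median of 109 neighbours differed by 0.09 in WT1, -0.22 in WT2, -0.19 in WT3, 0.15 in KO1 and 0.14 in KO2, and Ticam1 by 0.57 in WT1, -0.55 in WT2, -0.36 in WT3, 0.23 in KO1 and 0.11 in KO2. The windows of the other 7 genes stayed between -0.07 and 0.06. The shifts around Tlr7 and Tlr8 and around Ticam1, and the level of Ticam1 itself, part the clones as the header numbers do. Copy number was not measured, and its part in the levels was not tested.

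**Figure D3:**
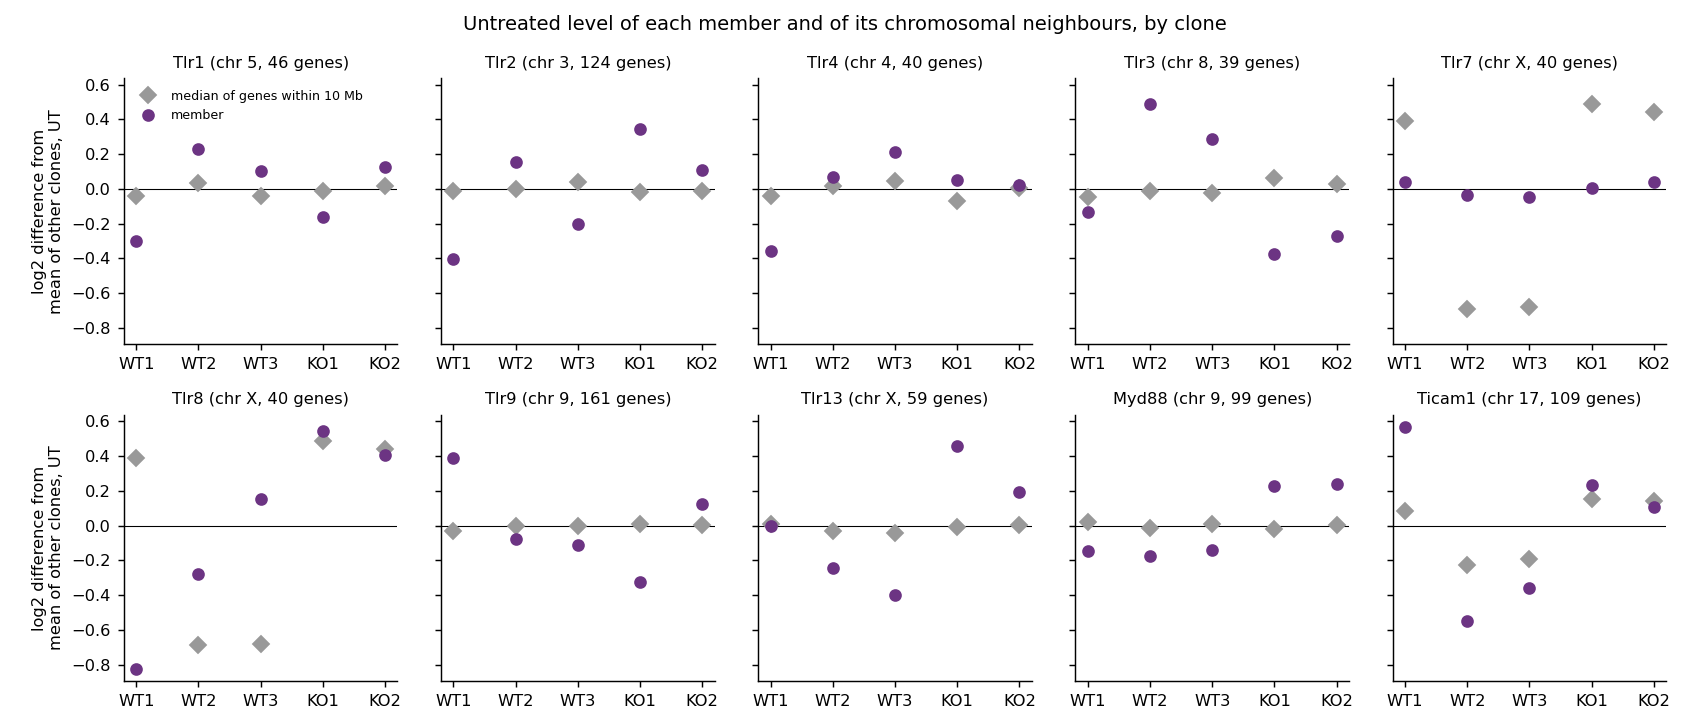
Untreated level of each gene (circles) and median of its chromosomal neighbours within 10 Mb (diamonds), as log2 difference of each clone from the mean of the other 4. The neighbours of Tlr7 and Tlr8 lie near -0.69 in WT2 and -0.68 in WT3 and at 0.39 to 0.49 in the other clones while Tlr7 stays near 0.

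Set by genotype, UT libraries of KO clones had more Tlr8 (log2FC = 0.60, SE 0.130, adjusted p = 0.00274), Tlr13 (log2FC = 0.42, SE 0.0702, adjusted p = 0.000341), Myd88 (log2FC = 0.31, SE 0.0337, adjusted p = 7.88e-06) and Tlr2 (log2FC = 0.29, SE 0.0871, adjusted p = 0.0204) and less Tlr3 (log2FC = -0.45, SE 0.0991, adjusted p = 0.00293). These were 4 genes higher and 1 lower, where 12.2% and 14.4% of all genes were called, and the median log2FC of the 10 was 0.10 against 0.00 over all genes. After IFNG, Tlr13 (log2FC = 0.85, SE 0.205, adjusted p = 0.00630), Tlr8 (log2FC = 0.79, SE 0.0978, adjusted p = 3.55e-05) and Tlr2 (log2FC = 0.63, SE 0.114, adjusted p = 0.000806) were higher and Tlr3 (log2FC = -0.56, SE 0.154, adjusted p = 0.0136) lower, 3 and 1 genes against 10.9% and 13% of all genes. Myd88 no longer passed (log2FC = 0.07, adjusted p = 0.419). Within the lower header numbers, where WT1 is the only WT clone, 7 of the 10 genes passed in UT (35.2% of all genes) and 7 after IFNG (32.2%). Tlr8 was higher in the KO clones than in WT1, with log2FC of 1.04 (adjusted p = 1.01e-06) in UT and 0.97 (adjusted p = 3.43e-05) after IFNG, as were Tlr2, with 0.49 (adjusted p = 0.000801) and 0.77 (adjusted p = 0.00471), and Tlr13, with 0.25 (adjusted p = 0.0115) and 0.25 (adjusted p = 0.0479). Myd88 was higher in both treatments, with 0.30 (adjusted p = 0.000704) and 0.26 (adjusted p = 0.00439). The lower Tlr3 level was not called within these clones, with log2FC of -0.17 (adjusted p = 0.125) in UT and 0.01 (adjusted p = 0.902) after IFNG. Ticam1 in UT was lower in KO than in WT1, at -0.33 (adjusted p = 0.00242), where the value over all clones was 0.17 (adjusted p = 0.495). Tlr9 was lower than in WT1 in both treatments, at -0.40 (adjusted p = 0.0289) and -0.40 (adjusted p = 0.0237), Tlr4 was higher in UT, at 0.30 (adjusted p = 0.00211), and after IFNG Tlr1 was higher, at 0.31 (adjusted p = 0.0138), and Tlr7 lower, at -0.21 (adjusted p = 0.0206). The higher header numbers hold a single genotype and give no such value. The values within the lower numbers rest on WT1 alone, so genotype and WT1 cannot be told apart in them. In UT, WT2 and WT3 were also above WT1 in Tlr8 (log2 difference 0.43 and 0.78) and in Tlr2 (0.43 and 0.15). They were below WT1 in Tlr13 (-0.20 and -0.33) and not called against it in Myd88 (-0.03 and -0.01). All these tests count libraries, and libraries of a clone share its history. With counts summed per clone, 3 against 2, edgeR called 0 of the 10 in either treatment, while 4 in UT and 3 in IFNG had an unadjusted p under 0.05, and the genes called with all libraries had adjusted p of 0.257 to 0.506. Without KO1, 2 genes passed in each treatment, Tlr13 and Myd88 in UT and Tlr2 and Tlr8 after IFNG. Tlr2 in UT did not pass without WT3 either (adjusted p = 0.0880), and Tlr3 after IFNG did not pass without WT2, WT3 or KO2 (adjusted p = 0.0718 to 0.135). Ticam1 passed in neither treatment but did without WT1, its highest clone (log2FC = 0.51, adjusted p = 5.18e-06 in UT and log2FC = 0.48, adjusted p = 0.000156 after IFNG). The share of all genes called was not computed for the fits with summed counts or without a clone.

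Pooled over clones, IFNG raised Tlr3 (log2FC = 2.20), Myd88 (1.36) and Tlr7 (0.35) and lowered Tlr13 (-1.06) and Tlr8 (-0.79) in WT, 3 and 2 genes against 14.8% and 13.9% of all genes. In KO, Tlr3 (2.09), Myd88 (1.12), Tlr7 (0.29) and Tlr1 (0.21) rose and Tlr13 (-0.63) and Tlr8 (-0.61) fell, 4 and 2 genes against 15.8% and 14.8%. Tlr1 lost the call without KO1 (log2FC = 0.16, adjusted p = 0.120). These fits leave out the clone, which the UT and IFNG libraries share. With clone as a block the WT fit called 8 genes, adding Tlr1 (log2FC = 0.15, adjusted p = 0.00926), Tlr4 (log2FC = -0.22, adjusted p = 0.00243) and Ticam1 (log2FC = -0.10, adjusted p = 0.0490), and the KO fit called 7, adding Tlr2 (log2FC = 0.25, adjusted p = 0.00944). The shares of all genes called with clone as a block were not computed, so the added calls have no baseline.

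The difference between the genotypes' responses was tested directly, as a genotype by treatment term with clone in the model. It passed for Tlr13, which fell less in KO (log2FC = 0.49, SE 0.116, adjusted p = 0.0252), and for Myd88, which rose less (log2FC = -0.24, SE 0.0551, adjusted p = 0.0227), 2 of 10 genes where 1.02% of all genes were called. For Tlr2 it was 0.30 (adjusted p = 0.0863, and 0.0332 with DESeq2). With WT1, KO1 and KO2 alone, the clones of the lower header numbers, the term was -0.01 (adjusted p = 1) for Tlr13 and -0.04 (adjusted p = 0.991) for Myd88, and 0 of the 10 genes passed by edgeR, with 1 at an unadjusted p under 0.05 and 0.469% of all genes called. Both calls were lost when WT2, WT3, KO1 or KO2 was left out, in fits that also hold fewer libraries, and why was not tested. Without WT2 the Tlr13 term was 0.35 (adjusted p = 0.384), without WT3 0.36 (adjusted p = 0.275), without KO1 0.47 (adjusted p = 0.334) and without KO2 0.51 (adjusted p = 0.150). Myd88 likewise did not pass without any of those 4 clones, with terms of -0.27 to -0.18 and adjusted p of 0.0687 to 0.418. Without WT1 the terms were 0.78 for Tlr13 and -0.32 for Myd88 (adjusted p = 2.56e-11 and 3.07e-05), and 5 genes passed: Tlr2, Tlr4, Tlr8, Tlr13 and Myd88. The share of all genes called was not computed for fits without a clone, so that count has no baseline. With clones as the units, the exact two-sided permutation test over the 10 splits of 5 clones gave p = 0.4 for Tlr13 and p = 0.2 for Myd88, and its smallest possible value, 0.1, for Tlr2, which is the least this design allows.

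**Figure D4:**
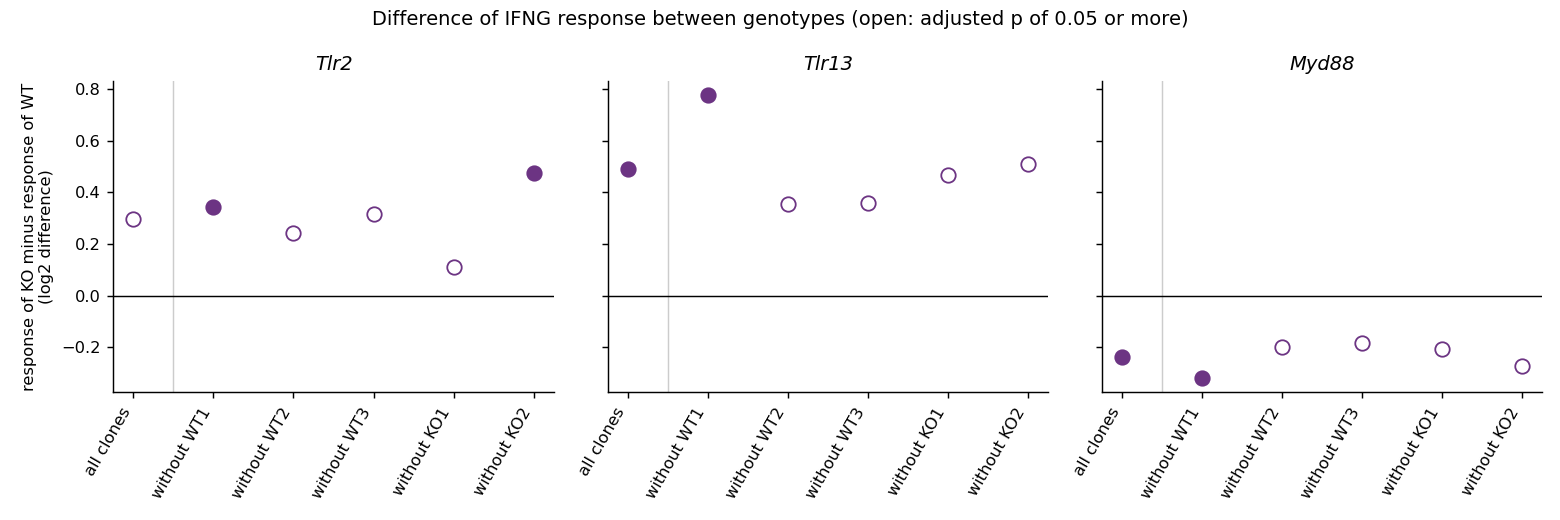
Response of KO minus response of WT (log2 difference) for Tlr2, Tlr13 and Myd88 with all clones and without each clone in turn; filled symbols passed an adjusted p of 0.05. The Tlr13 difference is 0.49 with all clones, largest without WT1, and 0.35 without WT2.

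Set against WT1 alone, neither KO clone had a member whose response differed by the test, with 0 of 10 genes called for KO1 (0.854% of all genes) and for KO2 (0.303%), although 3 and 1 genes had an unadjusted p under 0.05 and DESeq2 called 1 for KO1. For KO1 the 3 were Tlr2 (response minus that of WT1 0.40, 95% interval 0.17 to 0.63), Tlr3 (0.28, 0.04 to 0.52) and Tlr7 (-0.21, -0.37 to -0.05). For KO2 it was Tlr7 (-0.20, 95% interval -0.36 to -0.04). The Tlr13 response minus that of WT1 was -0.02 (95% interval -0.18 to 0.14) for KO1 and -0.05 (95% interval -0.22 to 0.11) for KO2, and the Myd88 response minus that of WT1 was -0.10 (95% interval -0.24 to 0.04) for KO1 and -0.03 (95% interval -0.17 to 0.12) for KO2. WT2 and WT3, in contrast, differed from WT1 in 2 genes (Tlr4 and Tlr13, 1.39% of all genes) and 3 genes (Tlr3, Myd88 and Tlr13, 2.51%). Their Tlr13 responses lay -0.82 (95% interval -0.98 to -0.65) and -0.80 (95% interval -0.97 to -0.63) from that of WT1. Responses of WT2 and WT3 did not differ from each other in any member by edgeR (0.121% of all genes, 1 member with an unadjusted p under 0.05), nor did those of KO1 and KO2 (0.134%, 2 members with an unadjusted p under 0.05), with Tlr13 differences of 0.02 (95% interval -0.16 to 0.19) and -0.03 (95% interval -0.20 to 0.13).

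Against WT2, KO1 differed in Tlr2, Myd88 and Tlr13 (1.64% of all genes) and KO2 in Myd88 and Tlr13 (0.948%). Against WT3, KO1 differed in Tlr2, Myd88 and Tlr13 (2.04%) and KO2 in Tlr3, Myd88 and Tlr13 (1.34%). The Tlr13 difference was 0.80 (95% interval 0.63 to 0.96) for KO1 against WT2 and 0.75 (95% interval 0.58 to 0.91) for KO2 against WT3, and the Myd88 difference was -0.37 (95% interval -0.52 to -0.23) for KO1 against WT3 and -0.28 (95% interval -0.42 to -0.13) for KO2 against WT2. Over all 5 clones the response differed for 5 genes, Tlr13 (adjusted p = 1.70e-10), Myd88 (0.000473), Tlr2 (0.00778), Tlr4 (0.00833) and Tlr3 (0.0386), against 3.68% of all genes. Among the 3 unedited clones alone it differed for 4, Tlr13 (adjusted p = 2.73e-07), Tlr4 (0.00969), Myd88 (0.0114) and Tlr3 (0.0496), against 2.3% of all genes. The pairs share libraries and are not independent of each other. For Tlr13 and Myd88 the KO clones differed from WT2 and WT3, the clones of the higher header numbers, and WT1 differed from WT2 and WT3 in Tlr13 and from WT3 in Myd88.

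Of 38 other pathway genes, 34 could be tested, and IFNG raised 9 and lowered 5 of them in WT1 (11.8% and 9.47% of all genes), 12 and 6 in WT2 (17.4% and 17%), 12 and 5 in WT3 (18.6% and 17.5%), 15 and 4 in KO1 (16.2% and 13.2%) and 12 and 4 in KO2 (13.9% and 13.2%). The share of all genes called the same way in all 5 clones was not computed. The genes named so, here and in the next paragraph, therefore have no baseline. Among the other receptors, Tlr5 (log2FC -1.04 to -0.61), which recognises flagellin, fell in all 5 clones and Tlr6 rose in 4. Tlr12 had no count, and Tlr11, Lbp and Cd36, with 11, 2 and 77 counts over all libraries, were not tested. Among the other adaptors, Pik3ap1 (log2FC 0.52 to 0.82), which links receptors to PI3-kinase, rose in all 5 clones, and Tirap, the bridge from Tlr2 and Tlr4 to Myd88, in 4. Of the 8 accessory proteins tested, Ly86 (log2FC 0.35 to 0.53) and Cd180 (log2FC 0.19 to 0.49), which form a complex related to that of Tlr4, rose in all 5 clones. Cd14 (log2FC -0.48 to -0.38), the lipopolysaccharide co-receptor, and Slc15a4 (log2FC -0.36 to -0.22), an endolysosomal transporter, fell in all 5, and Unc93b1, the chaperone of the endosomal receptors, passed in none (log2FC -0.07 to 0.04).

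Of the 12 signalling genes, the kinase Irak2 (log2FC 1.44 to 1.74), the adaptor kinase Ripk1 (log2FC 0.84 to 0.99), the IRF kinase Ikbke (log2FC 0.49 to 0.73) and the ubiquitin ligase Traf6 (log2FC 0.27 to 0.48) rose in all 5 clones, and Irak1, Irak4, Traf3, Map3k7 and Tab1 passed in none. Of the 5 negative regulators, Tnfaip3 (log2FC 0.61 to 1.97), which encodes the ubiquitin-editing enzyme A20, rose and Irak3 (log2FC -0.81 to -0.46), an inhibitory IRAK, fell in all 5 clones. Of the 3 transcription factors, Irf7 (log2FC 2.35 to 3.30) rose in all 5 clones, and Irf3 passed in none. The genotype by treatment term passed for 1 of the 34, Irf5 (log2 difference 0.22, adjusted p = 0.0123), where 1.02% of all genes passed. It did not pass with WT1, KO1 and KO2 alone (0.13, adjusted p = 0.802), with counts summed per clone and treatment (0.22, adjusted p = 0.586) or without WT2, WT3 or KO1 (0.17 to 0.21, adjusted p = 0.0962 to 0.374).

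**Figure D5:**
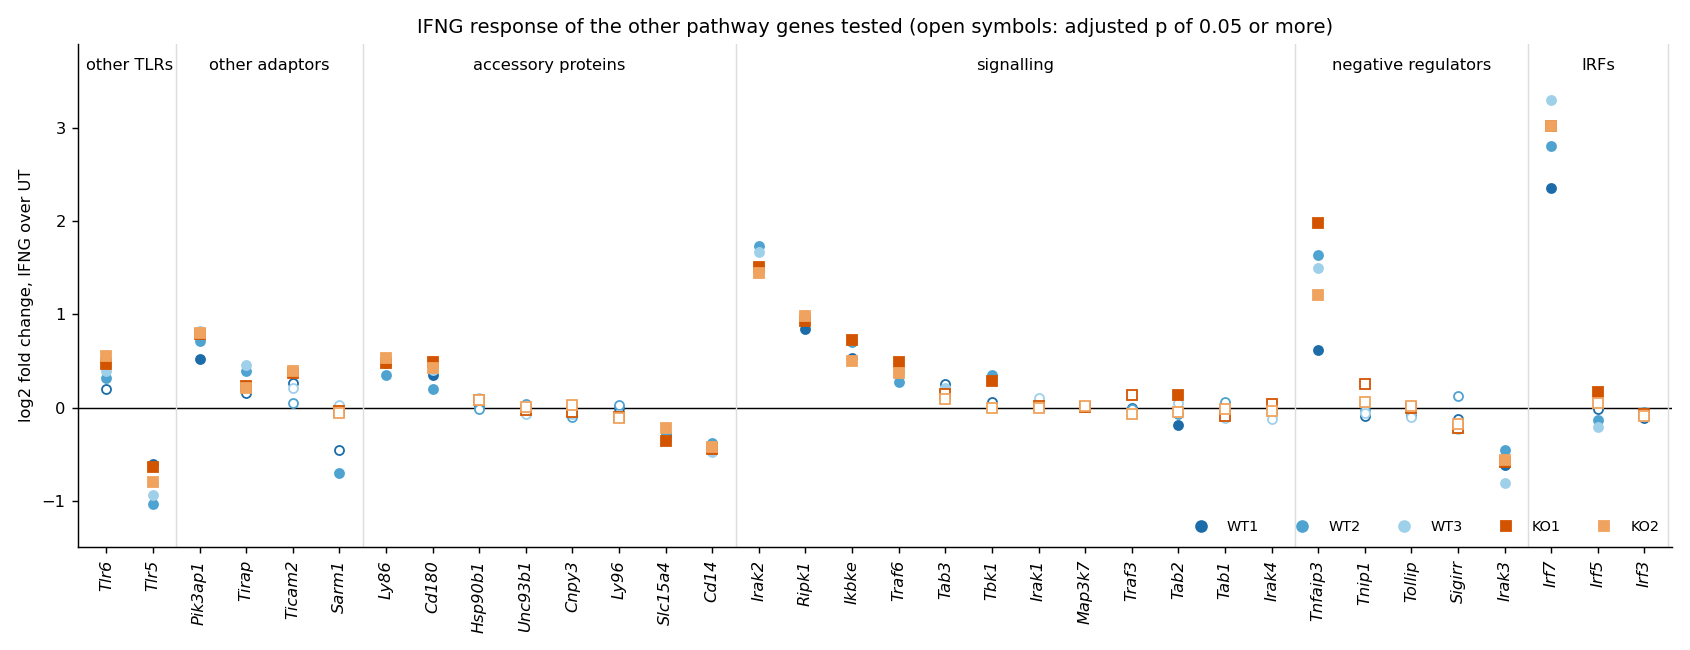
log2 fold change of IFNG over UT in each clone (circles WT, squares KO) for the 34 other pathway genes tested, grouped by role; open symbols did not pass an adjusted p of 0.05. Irf7 lies between 2.35 and 3.30 and Irak2 between 1.44 and 1.74, with Tlr5 the lowest of the receptors at -1.04 to -0.61.

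Patterns over the 10 means of clone and treatment were compared by Pearson's r of log2(CPM + 0.5) across 12345 expressed genes, as a description, since the points share clones and libraries. The genes closest to Tlr3 were Mitd1 (1.00), Parp12 (0.99) and Slfn9 (0.99), and those closest to Myd88 were Ebp (1.00), Gm6548 (1.00) and Pnp2 (0.99). Closest to Tlr13 were Ifnar1 (0.98), Gm4875 (0.98) and Plekho1 (0.97), of which Ifnar1 encodes a chain of the type I interferon receptor. Closest to Tlr8 were Tnfrsf11a (0.98), Socs5 (0.98) and Calcrl (0.97), of which Tnfrsf11a encodes RANK. The nearest to Tlr7 were F730043M19Rik (0.97), Shisa5 (0.96) and Socs7 (0.96). For the genes that moved little, the nearest were Pigo (0.99), Pafah1b3 (0.99) and 1700003F12Rik (0.99) for Ticam1, Rbbp6 (0.99), Twf1 (0.98) and Mcur1 (0.96) for Tlr1 and Zfp119a (0.97), 2700097O09Rik (0.97) and Id2 (0.97) for Tlr9. Tlr2 and Tlr4 had the least similar neighbours, Gm13461 (0.95), Timm17a (0.93) and Mdm2 (0.93) and Zfp558 (0.90), Zbed4 (0.90) and Fam53b (0.90), respectively. Among the members, r was 0.92 between Tlr3 and Myd88, 0.84 between Tlr7 and Myd88 and -0.88 between Tlr3 and Tlr13.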

How the data were processed

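RNA-seq of J774A.1 polyA RNA was deposited by the authors as raw counts per Ensembl gene, made per the labels with HISAT2 2.1.0 on mm10 and featureCounts 1.6.2 (reversely stranded). The column headers name WT2 and WT3 wtc1 and wtc3, and these columns were tied to the clones by the submitters' WT2 and WT3 tables. Totals of 15566122 to 37992642 limit precision by counting error. The labels name more than 1 amount of RNA input and more than 1 adapter kind without assigning them to libraries. The members and lists were chosen with earlier results of these data known. Genes of the other lists are named where they passed in the same direction in all 5 clones, and others (Tlr6, Tirap, Unc93b1, Irf3, Irf5 and signalling genes that passed in no clone) were named after their values were seen. Similar genes are the 3 with the highest r. Each comparison was fitted on its own libraries over all genes with edgeR 4.0.16 in R 4.3.3 (filterByExpr, TMM, quasi-likelihood F test, Benjamini-Hochberg adjustment, threshold 0.05). The code was tried on simulated data in which, unlike here, untreated levels did not differ between clones. The 10 comparisons of responses between clones were added after the data were seen, from 1 fit of 30 libraries, with 95% intervals from the t distribution at 20 residual degrees of freedom. Every SE is the size of the log2FC divided by the square root of its F statistic, so the intervals are approximate. Alternatives were DESeq2 1.42.0, other filters and scalings, a single fit, summed counts, leaving out clones or libraries, and, chosen after seeing the data, WT1, KO1 and KO2 alone. Pairs of libraries of a group differed by more than sampling noise (chi-square per degree of freedom at least 1.88).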

Additional observations from a re-analysis of the deposited data

Results flagged for a closer look

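The genotype by treatment term passed for Tlr13 (log2 difference 0.49) and for Myd88 (-0.24), so that their responses differed between KO and WT with libraries as replicates. With WT1, KO1 and KO2 alone the terms were -0.01 and -0.04, and neither passed. The response also differed between the 5 clones for Tlr13 (adjusted p = 1.70e-10), Myd88 (0.000473), Tlr2 (0.00778), Tlr4 (0.00833) and Tlr3 (0.0386), by edgeR. Among the 3 WT clones it differed for Tlr13 (adjusted p = 2.73e-07), Tlr4 (0.00969), Myd88 (0.0114) and Tlr3 (0.0496). With the 5 clones as the units, the exact permutation test of the genotypes' difference gave p = 0.4 for Tlr13 and p = 0.2 for Myd88.

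In UT libraries of KO, the highest Ticam1 library, from KO1 at 26.1 CPM, stood apart from the other 5 by Dixon's criterion. It was 1 of 40 groups examined, and chance alone marks about 1 in 20.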

How the results depend on the processing

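No paired analysis was possible because the columns carry no replicate numbers, and leaving out replicate 1, 2 or 3 of every group could not be run for the same reason. Each clone, and each library of a comparison within a clone, was left out instead. Over 730 refits of single genes under other settings, 671 kept direction and call, 33 lost the call, 23 gained it and 3 reversed, and over 600 fits without a library the numbers were 586, 9, 5 and 0. Of 169 counts of members called, 150 stayed within 1.5 times. The exceptions follow. With clone as a block the pooled WT response called 8 genes (5 without) and the KO response 7 (6 without). KO against WT called 0 with counts summed per clone and 2 without KO1 in both treatments (5 in UT and 4 in IFNG with all libraries). With WT1, KO1 and KO2 alone, a setting chosen after seeing the data, KO against WT called 7 after IFNG, the genotype by treatment term called 0, and the 3 reversals were Ticam1 in UT (log2FC = -0.33), Tlr3 after IFNG (0.0133) and the term for Tlr13 (-0.00859). After IFNG, Tlr3 did not pass without WT2, WT3, KO1 or KO2 (adjusted p = 0.0718 to 0.135). The genotype by treatment term (2 genes) called 0 with counts summed per clone and treatment, 5 without WT1, 0 without WT2, WT3 or KO1, and 1 without KO2 (Tlr2). In the added fits without a library it called 1 to 3, and Tlr13 passed in 29 of 30, Myd88 in 27 and Tlr2 in 4. For responses of clone pairs, WT2 against WT1 called 4 with DESeq2 and 4 without a count filter (2 in the report), WT3 against WT1 5 without a filter (3), KO1 against WT1 1 with DESeq2 and 1 without a filter (0), and KO2 against KO1 1 without a filter (0). A 5 Mb window moved 19 of 50 neighbour medians by more than their spread, none in the window of Tlr7 and Tlr8. With a pseudocount of 2, the genes most similar to each member were kept in full or in part for 10 of 10 members, Tlr7 keeping 1 of 3. Causes were not tested, except that summing counts leaves fewer samples. Counts were lowest for Ticam1, from 232 in a library, and the largest SE of a clone's response was that of Tlr9 (0.107, beside 0.0992 for Ticam1). Small differences are hard to detect in both.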
